A study of Mus musculus with 10 samples.

Results

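Protein kinase A (PKA) subunits and cyclic nucleotide phosphodiesterases were examined in whole adrenal glands of mice lacking the cAMP-responsive element modulator (Crem) and of wild type mice. The set was a fixed list of 10 genes, 5 encoding PKA subunits (Prkaca, Prkacb, Prkar1a, Prkar2a and Prkar2b) and 5 encoding phosphodiesterases (Pde8a, Pde8b, Pde11a, Pde2a and Pde4d). A gene was taken as measured where an array probe was annotated to it alone, and its probe with the highest mean level was used. By this rule 9 of the 10 genes were measured, among 19661 genes of the whole series with such a probe. The exception was Prkaca, encoding the catalytic subunit alpha, whose probe was shared with Samd1, so no value is given for it.

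RNA was hybridised from 5 mice labelled Crem-/- (KO) and 5 mice labelled WT, each on 1 array, all on a mixed 129Pas x C57Bl/J background, 8 weeks old, untreated and killed at 0 h circadian time. Levels are log2 values, so a difference of 1 is a doubling of signal. The labels give 4 batches without saying what a batch was: batch 1 held KO 1, KO 2 and WT 1, batch 2 held KO 3 and KO 4, batch 3 held KO 5, WT 2, WT 3 and WT 4, and batch 4 held WT 5. Numbers after KO and WT only name an array. The deleted part of Crem is not stated in the labels, and its probe read 6.84 to 7.97 on KO arrays and 7.23 to 8.14 on WT arrays, so it did not check the labels. Adrenal cortex markers averaged 12.21 to 12.76 on KO arrays and 12.65 to 12.77 on WT arrays. Other tissue was also read. Liver markers averaged 13.45 on KO 1 and 6.78 to 9.61 on the other KO arrays, against 7.03 to 8.74 on WT arrays. Adipocyte markers averaged 12.66 on KO 1, 12.63 on KO 3 and 8.88 to 9.87 on the other KO arrays, against 9.51 to 11.36 on WT arrays. Chromaffin cell markers averaged 8.33 on KO 1 and 11.57 to 12.67 on the other KO arrays, against 11.87 to 12.67 on WT arrays.

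PKA is held inactive as a tetramer of a regulatory subunit dimer and a pair of catalytic subunits. cAMP binds the regulatory subunits and releases the catalytic subunits, which phosphorylate, among other proteins, the transcription factors CREB and CREM. Phosphodiesterases end the signal by hydrolysing cAMP, cGMP or both. In the adrenal cortex this pathway carries the signal of ACTH to steroid synthesis, and in humans inherited defects of PRKAR1A, PDE11A and PDE8B have been linked to adrenocortical hyperplasia.

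CREM binds the cAMP response element, TGACGTCA, and its shortened form TGACG. Both were searched on either strand in RefSeq promoters (GRCm38.p6, 250 bases before to 50 after each annotated start), and 27 windows matched the 10 genes. The full element was in 2 of the 27 windows (7.41%), both overlapping windows of Prkar1a that share 1 copy, against 1.79% of all 32851 windows. Counted by gene, it was found for 1 of 10, against 2.03% of 27025 genes. The Prkar1a window with this copy upstream of its start, at chr11:109650699-109650998 on the plus strand, is shown with the element in capitals. Its first base lies at position -49 from the start.
Prkar1a: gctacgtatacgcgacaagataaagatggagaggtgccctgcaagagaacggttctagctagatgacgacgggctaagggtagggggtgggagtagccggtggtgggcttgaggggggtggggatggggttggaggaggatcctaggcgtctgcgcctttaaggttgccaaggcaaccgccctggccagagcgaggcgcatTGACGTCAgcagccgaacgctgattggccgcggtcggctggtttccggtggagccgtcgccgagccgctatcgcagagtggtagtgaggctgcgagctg
TGACG, which also lies within every full element, was in 9 of the 27 windows (33.3%), against 20.8% of all windows. It was found for 7 of the 10 genes, against 23.0% of 27025 genes, although genes differ in their number of windows. For the other measured genes with a copy, the copy and its neighbouring bases are shown 5′ to 3′ on the gene's strand with TGACG or its reverse complement CGTCA in capitals.
Prkacb: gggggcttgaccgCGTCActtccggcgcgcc
Prkar2a: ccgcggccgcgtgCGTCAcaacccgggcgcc
Pde8a: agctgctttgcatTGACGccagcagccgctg
Pde8b: gggaaagttggggTGACGcgcgctg
Pde2a: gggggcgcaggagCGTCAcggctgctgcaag
These lie at chr3:146813031-146813061 (minus strand) for Prkacb, chr9:108692126-108692156 (plus) for Prkar2a, chr7:81213168-81213198 (plus) for Pde8a, chr13:95223001-95223025 (minus) for Pde8b and chr7:101450521-101450551 (plus) for Pde2a. No TGACG was in the windows of Prkar2b, Pde11a or Pde4d. A match describes the letters only, and binding was not measured.

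In order of mean level over the 10 arrays they were Prkar1a (11.90), Prkar2b (11.64), Pde2a (11.44), Prkacb (10.40), Pde8a (9.43), Pde8b (9.19), Prkar2a (7.76), Pde4d (7.60) and Pde11a (6.34). The mean of Prkar1a stood above that of 98.8% of all genes and that of Pde11a above 27.1%. Probes of different genes bind with different strength, so this order describes array signal and does not rank amounts of transcript. Neighbours in the order often changed places. Prkar2b read higher than Prkar1a on 5 of 10 arrays, Pde2a higher than Prkar2b on 3, Pde8b higher than Pde8a on 3, and Pde4d higher than Prkar2a on 4. Prkacb read higher than Pde8a, and Pde4d higher than Pde11a, on 10 of 10 arrays.

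**Figure D1:**
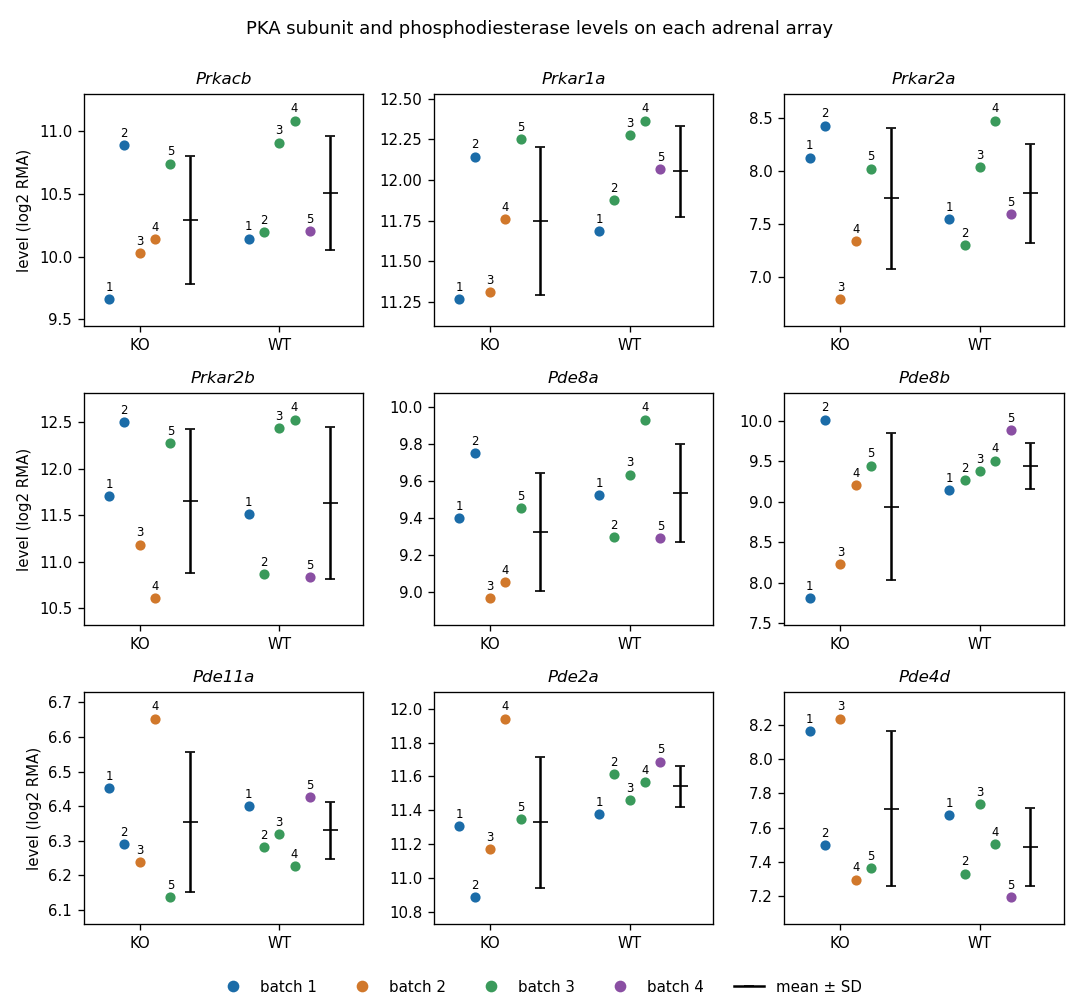
Level of each measured gene (y axis, log2 RMA value) on each array, KO arrays left of WT arrays, with the group mean and SD. KO and WT points overlap for all 9 genes, and KO points of Pde8b reach from 7.81 to 10.01 against 9.14 to 9.88 on WT arrays.

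No measured gene differed between KO and WT beyond the spread between arrays. With limma and Benjamini-Hochberg adjustment over all 25664 probes, 0 of 9 genes passed an adjusted p of 0.05 (every adjusted p = 0.999), where the share of all probes passing was 0%. At an unadjusted p under 0.05 the count was also 0 of 9, against 3.42% of all probes (878 of 25664). KO and WT levels overlapped for all 9 genes, while the groups were apart for 0.717% of all genes. The median difference, KO minus WT, was -0.21 over the 9 genes and -0.01 over all genes, with 6 of 9 lower in KO and 53.2% of all genes lower in KO. With batch as a block, 5 of 9 and 59.9% of all genes were lower in KO. Batches 2 and 4 each hold a single genotype. The fixed batch term used here and below therefore takes its differences from batches 1 and 3 only. Whole glands were used, so fewer cells of a type and less RNA per cell cannot be told apart in any of these values.

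**Figure D2:**
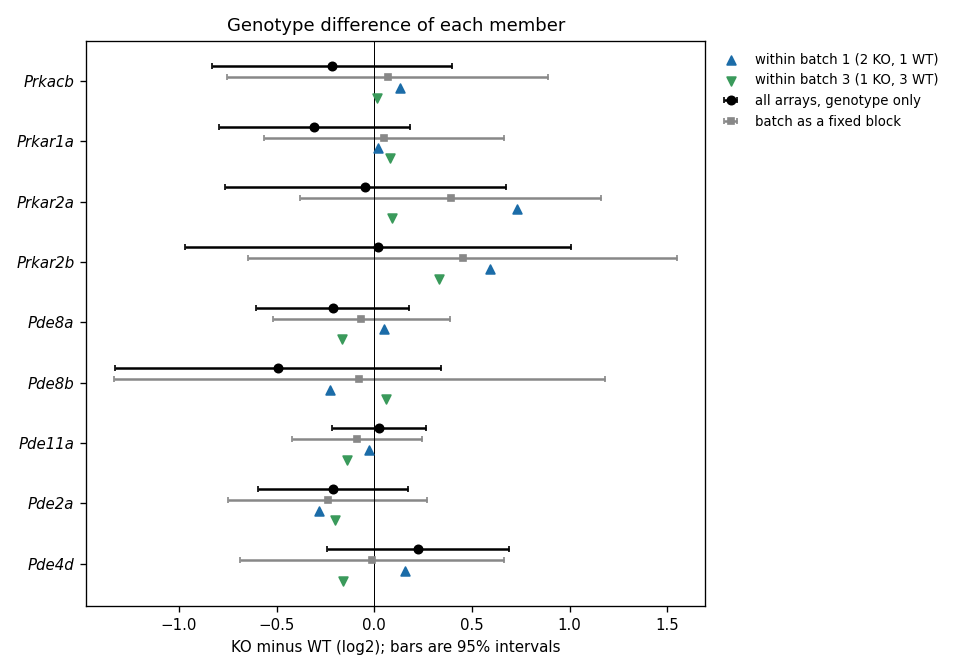
Difference in level, KO minus WT (x axis, log2), for each measured gene with its 95% interval from limma, beside the estimate and interval with batch as a block (grey) and the estimates within batches 1 and 3 (triangles). Each interval of the fit without batch includes 0. Pde2a is the gene whose 4 estimates, rounded, are all at -0.20 or lower. The block estimate is made from batches 1 and 3 only, so the 4 are not independent.

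Of the catalytic subunits, Prkacb, encoding catalytic subunit beta, was measured. It read 9.66, 10.89, 10.03, 10.14 and 10.74 on KO 1 to KO 5, against 10.14, 10.20, 10.91, 11.09 and 10.20 on WT 1 to WT 5. KO 1 and KO 3 were the lowest arrays, whereas KO 2 and KO 5 read above WT 1, WT 2 and WT 5 and below WT 3 and WT 4. The level averaged 10.29 ± 0.51 on KO arrays and 10.51 ± 0.45 on WT arrays (SD, n = 5 each), a difference of -0.22 (95% interval -0.83 to 0.40, exact permutation p = 0.46, two-sided). The difference was 0.07 with a batch term, 0.13 in batch 1 alone and 0.01 in batch 3 alone. Each of these batches holds a genotype on 1 array only, and the SE was 0.67 in batch 1 and 0.40 in batch 3.

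Prkar1a encodes RI alpha, the regulatory subunit of the largely cytosolic type I kinase. It read 11.27, 12.14, 11.31, 11.76 and 12.25 on KO 1 to KO 5, against 11.69, 11.88, 12.28, 12.37 and 12.06 on WT 1 to WT 5. The low KO arrays were again KO 1 and KO 3, and KO 2 and KO 5 lay inside the WT range. It averaged 11.75 ± 0.46 on KO arrays and 12.05 ± 0.28 on WT arrays (SD, n = 5 each), a difference of -0.31 (95% interval -0.80 to 0.18, exact permutation p = 0.23, two-sided). With batch as a block the difference was 0.05.

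Prkar2a encodes RII alpha, the widely expressed regulatory subunit of the type II kinase, which A-kinase anchoring proteins tether in the cell. It read 8.12, 8.43, 6.79, 7.34 and 8.02 on KO 1 to KO 5, against 7.54, 7.30, 8.03, 8.47 and 7.59 on WT 1 to WT 5. KO 3 stood lowest, whereas KO 1, low for Prkacb and Prkar1a, was among the high arrays. The means were 7.74 ± 0.66 on KO arrays and 7.79 ± 0.47 on WT arrays (SD, n = 5 each), and the difference of -0.05 had a 95% interval of -0.77 to 0.67 (exact permutation p = 0.905, two-sided). It was 0.39 with a batch term, 0.73 in batch 1 alone and 0.09 in batch 3 alone.

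Prkar2b encodes RII beta, the regulatory subunit known in the mouse for its abundance in fat and brain. It read 11.70, 12.49, 11.19, 10.61 and 12.27 on KO 1 to KO 5, against 11.51, 10.87, 12.43, 12.53 and 10.84 on WT 1 to WT 5. Each genotype thus held arrays near the top and near the bottom of the range. The means were nearly equal, 11.65 ± 0.78 on KO arrays and 11.63 ± 0.82 on WT arrays (SD, n = 5 each). The difference of 0.02 had a 95% interval of -0.97 to 1.01 (exact permutation p = 0.968, two-sided), which spans changes from close to a halving to a doubling. It was 0.45 with a batch term, 0.59 in batch 1 alone and 0.33 in batch 3 alone.

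Pde8a and Pde8b encode cAMP-specific phosphodiesterases of high affinity, and in the mouse adrenal PDE8 activity restrains steroid output. Pde8a read 9.40, 9.75, 8.96, 9.05 and 9.45 on KO 1 to KO 5, against 9.53, 9.29, 9.63, 9.93 and 9.29 on WT 1 to WT 5. KO 3 and KO 4 read below every WT array and the other KO arrays lay among them. The difference was -0.21 (95% interval -0.61 to 0.18, exact permutation p = 0.278, two-sided), with means of 9.32 ± 0.32 on KO arrays and 9.54 ± 0.27 on WT arrays (SD, n = 5 each). It was -0.066 with a batch term, an estimate that does not draw on KO 3 and KO 4, the whole of batch 2. In batch 1 alone it was 0.049 and in batch 3 alone -0.17. Pde8b read 7.81, 10.01, 8.23, 9.21 and 9.44 on KO 1 to KO 5, against 9.14, 9.27, 9.38, 9.51 and 9.88 on WT 1 to WT 5. Its KO arrays spread far more than its WT arrays. KO 1 and KO 3 lay well below all others, and KO 2 was the highest of the 10. It averaged 8.94 ± 0.90 on KO arrays and 9.43 ± 0.28 on WT arrays (SD, n = 5 each), the largest mean difference of the 9 genes at -0.49 (95% interval -1.33 to 0.34, exact permutation p = 0.325, two-sided). That difference was -0.08 with a batch term, -0.23 in batch 1 alone and 0.06 in batch 3 alone. Without KO 1 and KO 3 it was 0.12, an alternative chosen after the values were seen.

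Pde2a encodes a phosphodiesterase that hydrolyses cAMP and cGMP and is stimulated by cGMP. In the zona glomerulosa it is known as the enzyme through which atrial natriuretic peptide lowers aldosterone. It read 11.30, 10.89, 11.17, 11.94 and 11.35 on KO 1 to KO 5, against 11.38, 11.61, 11.46, 11.57 and 11.69 on WT 1 to WT 5. KO 4 was the highest array, and the other 4 KO arrays read below every WT array. It averaged 11.33 ± 0.39 on KO arrays and 11.54 ± 0.12 on WT arrays (SD, n = 5 each), a difference of -0.21 (95% interval -0.59 to 0.17, exact permutation p = 0.286, two-sided). With a batch term the difference was -0.24 (95% interval -0.75 to 0.27), and it was -0.28 in batch 1 alone and -0.20 in batch 3 alone. Zona glomerulosa markers averaged 10.33 to 11.45 on KO arrays and 11.10 to 11.68 on WT arrays, and endothelial markers 10.04 to 10.42 on KO arrays and 10.28 to 10.63 on WT arrays. On KO 2, the lowest array for Pde2a, the glomerulosa mean was 11.36 and the endothelial mean 10.42. On KO 4, the highest for Pde2a, they were 11.23 and 10.20. The part of these markers in the Pde2a values was not tested.

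Pde11a encodes a phosphodiesterase of both cAMP and cGMP. It read 6.45, 6.29, 6.24, 6.65 and 6.14 on KO 1 to KO 5, against 6.40, 6.28, 6.32, 6.23 and 6.42 on WT 1 to WT 5. This was the least variable of the 9 genes. It averaged 6.35 ± 0.20 on KO arrays and 6.33 ± 0.08 on WT arrays (SD, n = 5 each), a difference of 0.02 (95% interval -0.22 to 0.27, exact permutation p = 0.833, two-sided). The values carry no detection call, so a level this low may be background.

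Pde4d encodes a cAMP-specific phosphodiesterase with many isoforms. It read 8.16, 7.50, 8.24, 7.30 and 7.37 on KO 1 to KO 5, against 7.67, 7.33, 7.74, 7.50 and 7.19 on WT 1 to WT 5. Here KO 1 and KO 3, the arrays lowest for Prkacb, Prkar1a and Pde8b, were the highest. It averaged 7.71 ± 0.45 on KO arrays and 7.49 ± 0.23 on WT arrays (SD, n = 5 each), a difference of 0.22 (95% interval -0.24 to 0.69, exact permutation p = 0.365, two-sided). The difference was -0.01 with batch as a block, and -0.10 without KO 1 and KO 3. Pde4d was the only measured gene with several single-gene probes, and its 3 probes gave differences of 0.22, 0.23 and 0.30. The probes did not share 1 pattern over arrays. The probe with a mean of 5.55 was also highest on KO 1 and KO 3, at 6.28 and 5.88. In contrast, the probe with a mean of 4.33 read 4.19 and 4.22 there. It was highest on WT 3, KO 2 and KO 5, at 4.93, 4.90 and 4.84. Both of these probes averaged below Pde11a (6.34), so their levels, differences and array patterns may also be background.

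Several of these genes varied more among the 10 arrays than most genes. The SD over the 10 arrays was 0.75 for Prkar2b, above that of 93.4% of all genes, 0.68 for Pde8b (91.7%), 0.54 for Prkar2a (86.2%) and 0.47 for Prkacb (81.9%). The median over all genes was 0.26. From the lowest to the highest array, Pde8b spanned 4.60-fold, Prkar2b 3.78-fold and Prkar2a 3.21-fold. Both ends of the Pde8b range were KO arrays, and its SD was 0.90 on KO arrays and 0.28 on WT arrays. The SD on KO and WT arrays was 0.78 and 0.82 for Prkar2b, 0.66 and 0.47 for Prkar2a, and 0.51 and 0.45 for Prkacb. Pde11a had an SD of 0.15, above that of 14.4% of all genes.

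**Figure D3:**
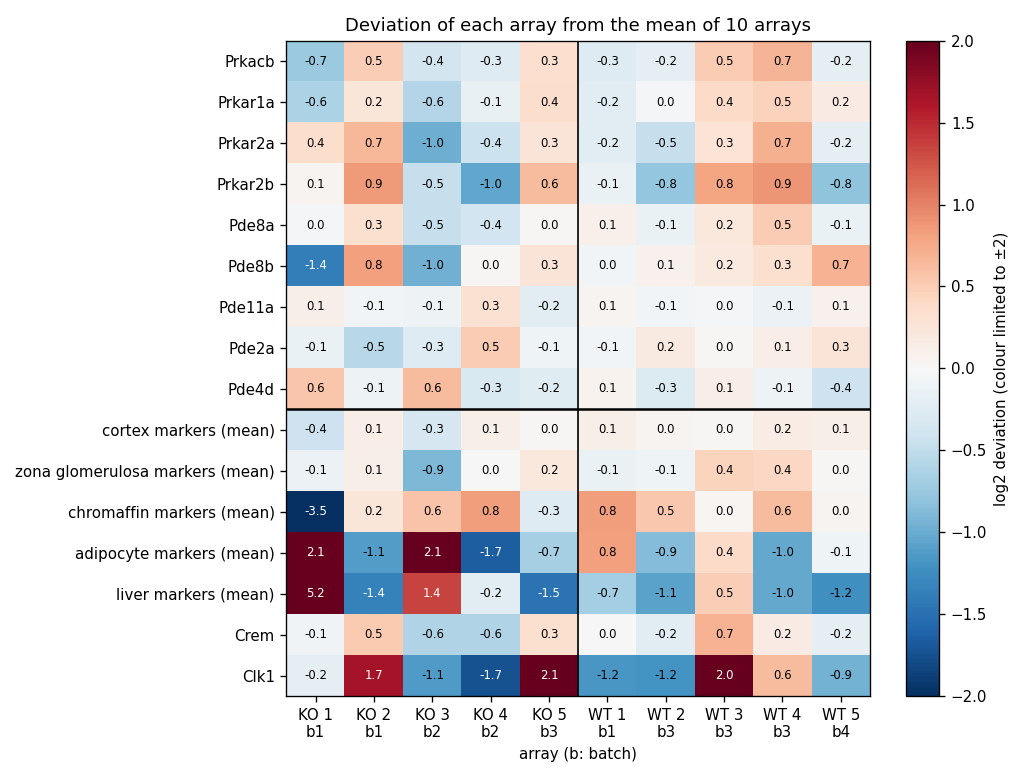
Level on each array minus the gene's mean over the 10 arrays (colour, limited to ±2, and printed value, log2), KO arrays left of WT arrays, with marker means, Crem and Clk1 in the lower rows. Prkacb, Prkar1a and Prkar2b are highest on KO 2, KO 5, WT 3 and WT 4, and Pde8b is lowest on KO 1 and KO 3.

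The same 4 arrays, KO 2, KO 5, WT 3 and WT 4, were the highest for Prkacb, Prkar1a and Prkar2b, and this set was on top for 12.3% of all genes (2427 of 19661). It was picked after the values were seen. Clk1, encoding a kinase of splicing factors and also chosen after its values were seen, read 11.70, 12.11, 12.02 and 10.66 on these 4 arrays and 8.28 to 9.85 on the other 6. Its part in the PKA subunit values was not tested. Sorted by its own level, Prkar2b read 12.27 to 12.53 on those 4 arrays, 11.19 to 11.70 on KO 1, KO 3 and WT 1, and 10.61 to 10.87 on KO 4, WT 2 and WT 5. These 3 sets were made from its values. Adipocyte marker means rose with Prkar2b between the 2 lower sets but not to the top set. They were 8.88, 9.67 and 10.44 on KO 4, WT 2 and WT 5, and 11.36 to 12.66 on KO 1, KO 3 and WT 1. On KO 2, KO 5, WT 3 and WT 4, where Prkar2b was highest, they were 9.42, 9.87, 10.92 and 9.51. Their part in the Prkar2b values was not tested.

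A different pair, KO 1 and KO 3, was lowest for Prkacb, Prkar1a and Pde8b, as for 7.28% of all genes, and highest for Pde4d, as for 8.68%. These 2 arrays had adipocyte marker means of 12.66 and 12.63, with 11.36 or less on every other array. KO 1 also stood apart in its liver and chromaffin markers. Adrenal cortex markers averaged 12.21 on KO 1 and 12.28 on KO 3, and 12.64 or more on every other array. The part of these markers in the 4 genes was not tested. Cyp11b1, the last enzyme of corticosterone synthesis and the zona fasciculata marker, was lowest on the same pair, at 13.50 and 13.54 on KO 1 and KO 3. It read 14.05, 14.01 and 14.10 on KO 2, KO 4 and KO 5, and 13.94 to 14.07 on WT arrays.

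**Figure D4:**
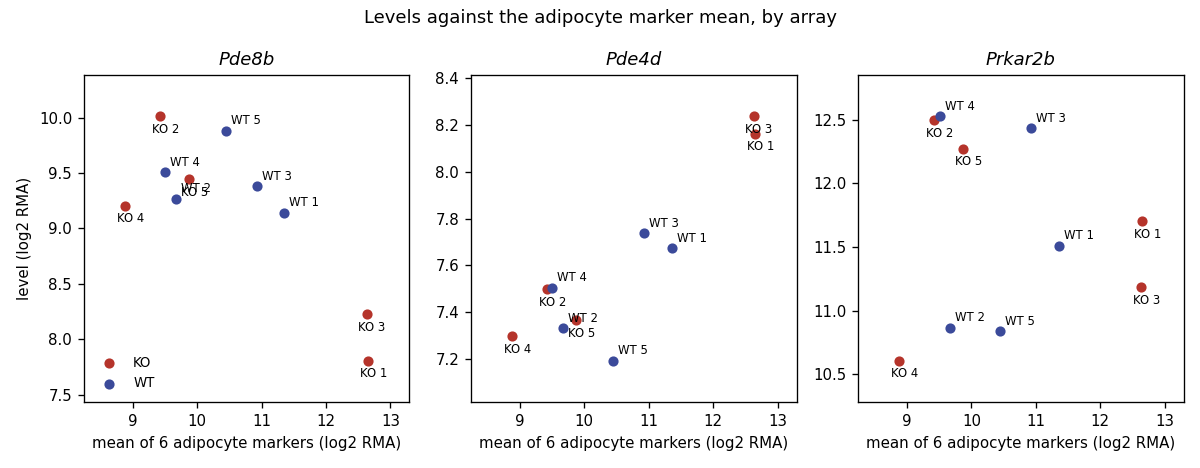
Level of Pde8b, Pde4d and Prkar2b (y axes, log2 RMA value) against the mean of 6 adipocyte markers (x axis, log2) on each array. KO 1 and KO 3, at 12.66 and 12.63 on the x axis, are lowest for Pde8b and highest for Pde4d.

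Balances between related genes were followed across arrays as differences of log2 levels, in which only the change between arrays can be read. Prkar2b minus Prkar1a, type II beta against type I alpha, was 0.44, 0.35, -0.13, -1.15 and 0.02 on KO 1 to KO 5, against -0.18, -1.01, 0.16, 0.16 and -1.23 on WT 1 to WT 5. KO 4, WT 2 and WT 5 stood apart below the other 7 arrays, so both genotypes held low arrays. The balance averaged -0.09 ± 0.64 on KO arrays and -0.42 ± 0.66 on WT arrays (SD, n = 5 each). Prkar2a minus Prkar1a averaged -4.01 ± 0.57 on KO arrays and -4.27 ± 0.27 on WT arrays, with KO 1 highest at -3.14. Pde8b minus Pde8a averaged -0.38 ± 0.78 on KO arrays and -0.10 ± 0.42 on WT arrays, with KO 1 lowest at -1.59 and WT 5 highest at 0.59. KO and WT overlapped in all 3 balances, which were not tested.

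**Figure D5:**
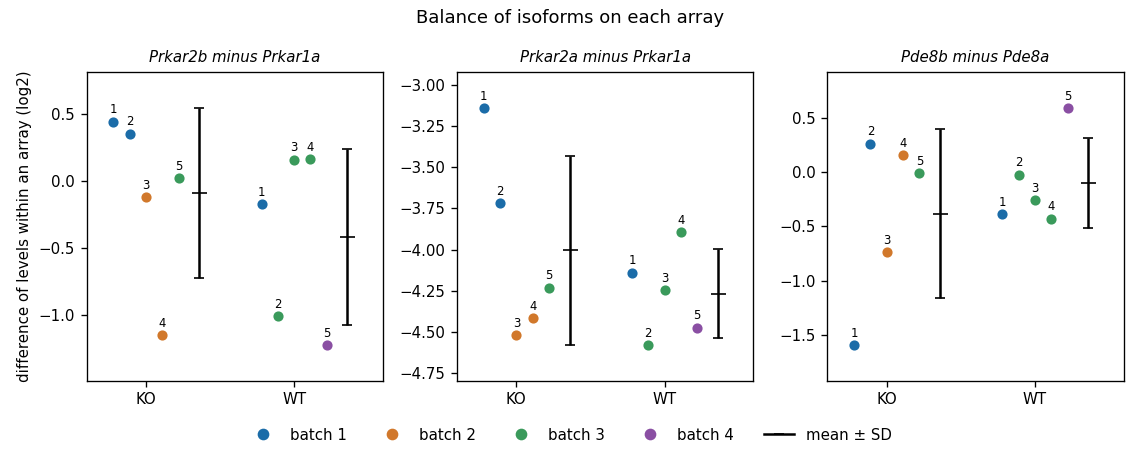
Difference of log2 levels within a gene pair (y axis) on each array, KO left of WT, with the group mean and SD. The lowest points of Prkar2b minus Prkar1a are KO 4 at -1.15, WT 2 at -1.01 and WT 5 at -1.23.

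Other genes of the pathway were counted from 5 lists. Of 52 measured genes, 0 passed an adjusted p of 0.05 with limma in either direction, and 1 (1.92%) had an unadjusted p under 0.05, against 3.42% of all probes. The other phosphodiesterases were all measured (19 of 19), with 11 higher and 8 lower in KO and a median difference of 0.04. The 17 measured A-kinase anchoring proteins had 6 higher and 11 lower and a median of -0.02, and the 5 other PKA subunits, related kinase and inhibitors 2 higher and 3 lower. Of the cAMP effectors other than PKA, 4 of 5 were measured, with 3 higher and 1 lower. The 7 measured genes of cGMP synthesis and signalling had 2 higher and 5 lower. The 1 gene at an unadjusted p under 0.05 was Npr3, the natriuretic peptide clearance receptor. It read 11.11, 9.95, 9.79, 8.72 and 10.44 on KO 1 to KO 5, against 8.69, 8.998, 9.86, 9.21 and 8.91 on WT 1 to WT 5. The groups overlapped, with a difference of 0.87 (SE 0.39, limma adjusted p = 0.999). The difference was 1.44 with batch as a block, 1.84 in batch 1 alone and 1.085 in batch 3 alone. Batch 1 sets KO 1 and KO 2 against WT 1, the lowest array for Npr3, and batch 3 holds 1 KO array. KO 1, the highest array for Npr3, also had the highest adipocyte and liver marker means and the lowest chromaffin marker mean. The part of these markers in the Npr3 values was not tested.

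The genes most like the 3 most variable members were sought by Pearson correlation over the 10 arrays. For each member, 7953 other genes with an SD of at least 0.3 were searched, and the 3 highest are given. All genes were read on the same 10 arrays, which differ in the marker levels given above, so these values are descriptions. For Prkar2b they were Prxl2c (r = 0.97), Baz1a (0.967) and Hipk3 (0.964), and for Pde8b Zmiz1 (0.977), Id2 (0.959) and Ptpra (0.951). For Prkar2a they were Ryk (0.975), Prkd3 (0.952) and Nr4a3 (0.95). Without KO 1 and KO 3, the 2 arrays farthest from the median of Pde8b, its values were 0.882 for Zmiz1, 0.746 for Id2 and 0.867 for Ptpra. The values of Prkar2b without KO 4 and WT 4 were 0.971, 0.985 and 0.971, in the same order of genes. Those of Prkar2a without KO 3 and WT 4 were 0.95 for Ryk, 0.917 for Prkd3 and 0.937 for Nr4a3.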

How the data were processed

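Whole adrenal RNA was labelled with biotin and hybridised to arrays, 1 per mouse, and the labels number the mice. The authors deposited log2 levels per probe. The submitters' notes on processing name RMA (background correction, quantile normalisation and summary of probes). No software version or treatment of batches was given in the sources used here. The values ran from 2.75 to 14.64, array medians from 7.17 to 7.25, and correlations between arrays from 0.908 to 0.992.

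Of 35557 rows, 9868 held no values and 25 measured control probes were left out, leaving 25664 probes. GEO's platform annotation gave 20777 of these 1 gene symbol, 232 several and 4655 none, and 19584 of 19661 genes were matched by Entrez ID to RefSeq. The 10 arrays were fitted in limma 3.58.1 (R 4.3.3) by lmFit and eBayes with genotype as sole term, two-sided, with Benjamini-Hochberg adjustment over all probes at 0.05. Exact permutation tests ran over all 252 choices of 5 arrays, so the smallest p was 0.00794. Other figures were computed in Python 3.11.15. The procedure was tested on simulated data.

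Named were all 10 genes, list genes with an unadjusted p under 0.05 (at most 4 per list) and the 3 genes most like each of the 3 most variable members. Npr3 was the only such list gene. Outside this rule, Clk1, Cyp11b1, Pde3b, Pde5a, Prkar1b, Akap9, Akap11 and Akap13 were chosen after their values were seen. The members and lists were chosen with earlier results of these data known. Alternatives were batch as a fixed or random block, batches 1 and 3 alone, median or quantile rescaling, a filter on dim probes, averaging the probes of each gene, a trended robust variance and leaving out each array. Added after seeing the data were the first 1 or 2 principal components as covariates and leaving out KO 1 and KO 3.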

Additional observations from a re-analysis of the deposited data

How the results depend on the processing

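No member passed the adjusted threshold in any of the 21 settings that counted members, and 5 arrays per group limit the precision, with 95% intervals of the log2 difference reaching -1.33 for Pde8b and 1.01 for Prkar2b, and -1.33 and 1.55 for the same genes with batch as a fixed block. No probe passed with any single array left out, and 1 passed with the first principal component as a covariate and 2 with the first 2 components, both alternatives chosen after seeing the data. Of 107 member values in 12 settings other than single arrays left out, 80 kept their direction and 27 reversed it. Pde2a kept its direction in all 12. Not all of these values could reverse. The filter on dim probes and the trended robust variance leave each estimate as it was, and averaging probes changes it for Pde4d only. Differences with reversed sign were 0.068 (Prkacb), 0.0505 (Prkar1a), 0.39 (Prkar2a), -0.087 (Pde11a) and -0.0105 (Pde4d) with batch as a fixed block. They were 0.051 (Prkar2a) and -0.0086 (Pde11a) with batch as a random block. Within batch 1 they were 0.13 (Prkacb), 0.018 (Prkar1a), 0.73 (Prkar2a), 0.0495 (Pde8a) and -0.028 (Pde11a). Within batch 3 they were 0.012 (Prkacb), 0.079 (Prkar1a), 0.088 (Prkar2a), 0.0596 (Pde8b), -0.14 (Pde11a) and -0.16 (Pde4d). Rescaling gave -0.0028 for Prkar2b with array medians and -0.0199 for Pde11a with quantiles. With the first component the Prkar2b difference was -0.016, and with the first 2 it was -0.26 for Prkar2b and -0.002 for Pde4d. Without KO 1 and KO 3 the reversed values were 0.083 (Prkacb), 0.14 (Prkar2a), 0.12 (Pde8b) and -0.10 (Pde4d). With each array left out in turn the difference ran from -0.0515 to 0.0777 for Pde11a, -0.22 to 0.19 for Prkar2a and -0.19 to 0.28 for Prkar2b, from -0.76 to -0.21 for Pde8b, -0.36 to -0.10 for Pde2a, -0.37 to -0.058 for Prkacb, -0.44 to -0.19 for Prkar1a, -0.32 to -0.11 for Pde8a and 0.093 to 0.33 for Pde4d. The causes were not tested. The background correction could not be repeated from summarised values, and Pde11a fell below the filter that kept the brighter probes. No paired analysis was possible because the labels give each mouse its own number.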

Other observations

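Among the A-kinase anchoring proteins, which tether PKA to its targets, 9 of 17 measured genes were highest on KO 2, KO 5, WT 3 and WT 4, the 4 arrays with the highest Prkacb, Prkar1a and Prkar2b. Over all 5 pathway lists the count was 14 of 52. The anchoring proteins included Akap9, Akap11 and Akap13, and this set of arrays, picked after the values were seen, was on top for 12.3% of all genes. Pde5a, encoding a cGMP-specific phosphodiesterase, read 9.31, 10.80, 8.93, 10.04 and 10.81 on KO 1 to KO 5, against 10.14, 9.83, 10.79, 10.74 and 9.49 on WT 1 to WT 5.

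Pde3b, encoding the cGMP-inhibited phosphodiesterase known from adipocytes, read 10.07, 7.27, 8.89, 6.11 and 7.54 on KO 1 to KO 5, against 7.50, 6.37, 8.14, 6.88 and 6.97 on WT 1 to WT 5. KO 1 and KO 3, the arrays with the highest adipocyte marker means, were the highest for it. Prkar1b, encoding the neural regulatory subunit RI beta, ran from 8.46 on KO 1 to 10.49 on KO 4. These are also the KO arrays with the lowest and the highest chromaffin marker means, 8.33 and 12.67. Pde5a, Pde3b and Prkar1b were chosen after their values were seen, and the part of the markers in them was not tested.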
